A study of Mus musculus with 6 samples.

Results

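The 41 genes described here encode proteins that act in the G2 phase of the cell cycle and in mitosis. They were chosen as a fixed set of named cyclins, mitotic kinases, spindle, kinetochore, checkpoint and cytokinesis genes, by name and role and not by a threshold on a measured value. All 41 were found among the 52230 genes of the table, and all 41 were among the 16745 genes that passed the expression filter. RNA was sequenced from hippocampi of newborn mice (postnatal day 0) in 2 groups, *Mov10* Deletion and wild type (WT), with 3 libraries each. MOV10 is an RNA helicase that works with Argonaute in microRNA silencing. The *Mov10* Deletion mouse carried a floxed *Mov10* allele that *Emx1*-driven Cre removes in excitatory lineage cells of the forebrain, together with a germline mutant *Mov10* allele that every cell carries. WT mice were of the C57BL/6 strain. Each library was made from the joined hippocampi of at least 2 pups, so that interneurons, microglia, vessels and blood, which Cre does not reach, were part of every sample. The comparison asks how the RNA level of these genes in newborn hippocampus differed when MOV10 was reduced.

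In the cell cycle, cyclin B with the kinase CDK1 drives cells from G2 into mitosis. Aurora and Polo-like kinases then build the spindle, and kinetochores tie chromosomes to its microtubules under the watch of the spindle checkpoint. Once the checkpoint is satisfied, CDC20 turns on the anaphase-promoting complex (APC/C), sister chromatids part, and the central spindle places the cleavage furrow. Most of these genes are transcribed late in the cell cycle. Their promoters are known for the CCAAT box, bound by nuclear factor Y (NF-Y), and for the cell cycle genes homology region (CHR), bound by the MuvB core of the DREAM and B-MYB complexes. In newborn hippocampus the dividing cells are mainly progenitors of the ventricular zone and of the forming dentate gyrus, with glial precursors, endothelial cells and microglia beside them.

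The promoter sequences are shown first, because the members share these motifs and they had no part in the choice of the set. RefSeq windows, reaching 250 bases before to 50 bases after the start site (RefSeq on GRCm38.p6, placed on GRCm39 by exact match), were at hand for 35 of the 41 genes, all but *Aurkb*, *Ccna2*, *Dlgap5*, *Tpx2*, *Incenp* and *Cdc25c*. Both strands were searched for the CHR core, written TTTGAA or TTTAAA, and for CCAAT. Each member was counted with the window nearest the start of its main transcript. The share of all genes took every window, of expressed genes or not. The CHR core was found in 26 of the 35 windows (74.3%) and in 27.6% of the 32851 windows of all genes. CCAAT was likewise found in 26 of the 35 (74.3%), and in 37.4% of all windows. Both stood together in 23 of the 35 windows (65.7%), against 10.7% of all windows. In the 250 bases before the start alone, the CHR core was in 16 of the 35 (45.7%, against 25.2% of all) and CCAAT in 25 (71.4%, against 33.8% of all). In 10 genes no CHR core match lay wholly before the start, and that of *Prc1*, at position -5, ran across it. The 8 members with the smallest p in the comparison below whose window held a match before the start are printed with their matches in capitals, on the strand of the gene and 5′ to 3′. A CCAAT match on the other strand reads ATTGG and a CHR match TTCAAA. Where an exon of any annotated transcript covered the matches, 30 bases are shown, and otherwise 120 bases.
*Arhgap11a*, chr2:113679080-113679109, minus strand, positions -103 to -74 from the start: tcatTTTGAAaacaggagcgggCCAATcgg
*Cenpf*, chr1:189420410-189420439, minus strand, positions -156 to -127 from the start: ttTTTAAAcagtcgtccaaaagggCCAATc
*Ckap2*, chr8:22675874-22675993, minus strand, positions -158 to -39 from the start: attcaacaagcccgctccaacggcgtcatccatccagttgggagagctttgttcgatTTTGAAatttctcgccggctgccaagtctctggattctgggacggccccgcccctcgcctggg
*Racgap1*, chr15:99549538-99549567, minus strand, positions -30 to -1 from the start: attatgagctcctctgtgATTGGctggtgc
*Cdc20*, chr4:118294541-118294570, minus strand, positions -30 to -1 from the start: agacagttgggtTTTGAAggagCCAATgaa
*Cdc25b*, chr2:131028827-131028856, plus strand, positions -41 to -12 from the start: aaccggcgcccccATTGGtggcgtctggcg
*Ube2c*, chr2:164611600-164611719, plus strand, positions -249 to -130 from the start: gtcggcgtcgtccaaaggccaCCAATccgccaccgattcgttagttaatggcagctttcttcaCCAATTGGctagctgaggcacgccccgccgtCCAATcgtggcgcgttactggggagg
*Ccnb1*, chr13:100923019-100923048, minus strand, positions -54 to -25 from the start: agcggcccggggTTTAAAcctaagcccggc

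In the stretches shown, the CHR core and CCAAT stood on 1 strand in *Arhgap11a* (positions -99 and -81) and *Cdc20* (-18 and -8). In *Cenpf* they stood at -154 and -132, and its CHR core match TTTAAA reads the same on both strands. In *Ube2c* the stretch shown holds CCAAT matches alone, and its CHR core match lies at position -29. Neither motif was found in the windows of *Mad2l1*, *Melk*, *Nuf2*, *Nusap1*, *Pttg1* and *Tacc3*. The RefSeq start lay 480 bases downstream of the start of the main GENCODE transcript in *Tacc3* and 285 bases downstream in *Pttg1*, so that those windows fall inside the annotated gene. A match is a description of letters in the window and not a mapped binding site.

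**Figure D1:**
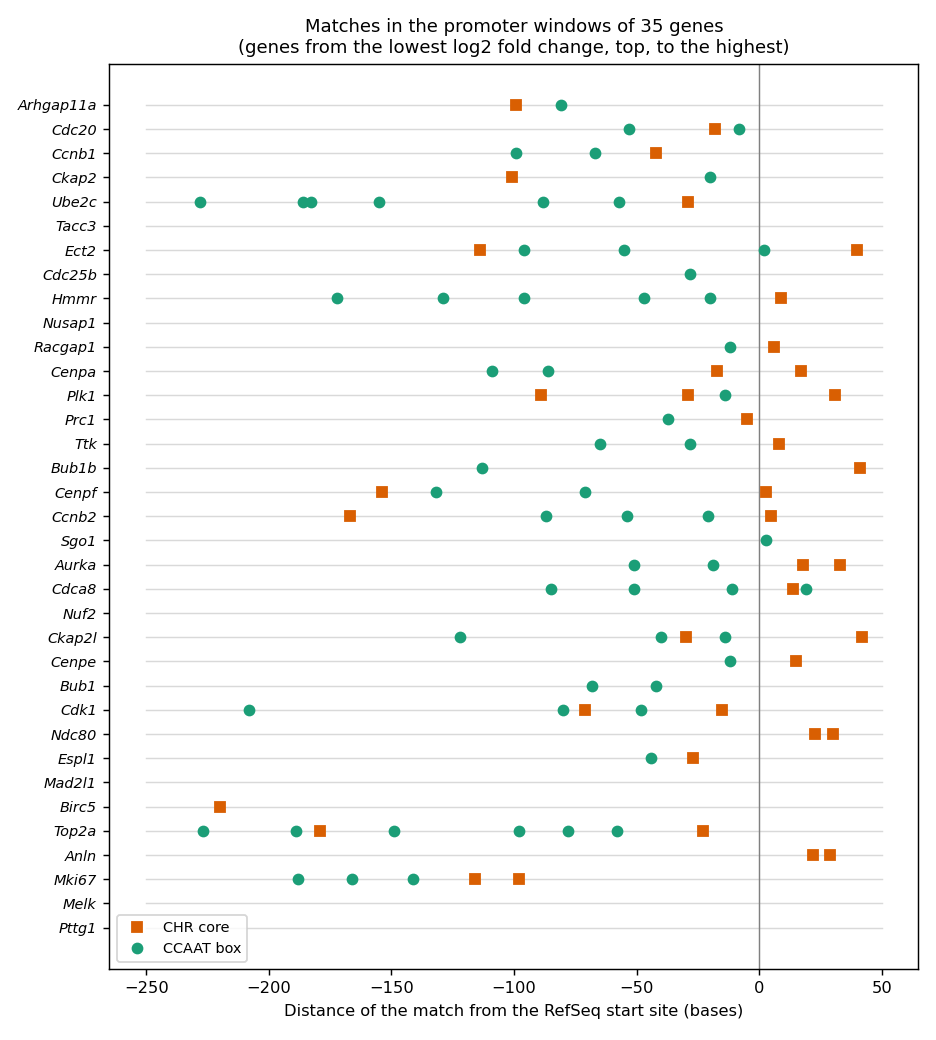
Position of each CHR core match (squares) and CCAAT match (circles) in bases from the RefSeq start site (x axis, vertical line at the start) in 35 genes (y axis), from the lowest log2 fold change (*Mov10* Deletion against WT) at the top to the highest at the bottom. Matches of both kinds were found in 23 genes and of neither kind in 6, among them *Pttg1* in the bottom row.

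The libraries held between 71400300 and 86207971 estimated counts, and no member had fewer than 320.4 in a library. *Mov10* itself, the check of the labels, was at 2.45, 2.13 and 2.09 CPM, the estimated counts scaled to library depth with TMM factors, in *Mov10* Deletion, against 4.81, 4.75 and 4.80 CPM in WT. The 10 pyramidal neuron markers that mark the tissue were all expressed, with a summed level of 1464 to 1532 TPM, the level scaled for transcript length, in *Mov10* Deletion and 1506 to 1604 TPM in WT. The pools differed in their mix of sexes, and the mix was uneven between the groups. *Xist*, expressed from the inactive X chromosome, was at 0.184, 888 and 1.57 CPM in *Mov10* Deletion, against 182, 251 and 643 CPM in WT. The Y-linked gene *Eif2s3y* was at 65.5, 24.9 and 61.3 CPM in *Mov10* Deletion, against 39.5, 21.0 and 21.1 CPM in WT. *Ddx3y*, also Y-linked, was at 61.2, 22.3 and 60.1 CPM in *Mov10* Deletion, against 60.4, 24.1 and 34.8 CPM in WT. Sex and genotype were thus partly confounded. The choroid plexus gene *Ttr* was at 45.6, 0.786 and 3.75 CPM in *Mov10* Deletion, against 13.4, 11.6 and 5.10 CPM in WT, so that the first *Mov10* Deletion library stood apart in tissue of the brain ventricles.

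Genes of G2 and mitosis were lower in *Mov10* Deletion hippocampus almost throughout the set. Of the 41 genes, 36 fell and 0 rose at an adjusted p of 0.05, where 12.1% of all tested genes fell and 12.6% rose (limma-trend with 2 factors of unwanted variation, Benjamini-Hochberg over all tested genes). At an unadjusted p of 0.05, 0 members rose as well, and edgeR and DESeq2 called 0 higher. The 5 that were not called were *Melk*, *Birc5*, *Ndc80*, *Pttg1* and *Anln*. The median log2 fold change of the members was -0.39, against 0.01 over all tested genes, and the members ranged from -0.66 (*Arhgap11a* and *Cdc20*) to 0.03 (*Pttg1*). The changes were moderate, and the largest was a fall by 36.5%. The adjusted p of the called members lay between 0.000616 and 0.0348. All 3 *Mov10* Deletion libraries lay below all 3 WT libraries for 35 of the 41 members, where this held for 21.2% of all tested genes. On the TPM scale it held for 31 members and for 18.6% of all tested genes. In tissue samples, fewer dividing cells and less RNA per dividing cell cannot be told apart. With a sex score in place of the factors 27 members were called lower, and with no filter on low counts, which added weakly expressed genes to the correction, 22.

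**Figure D2:**
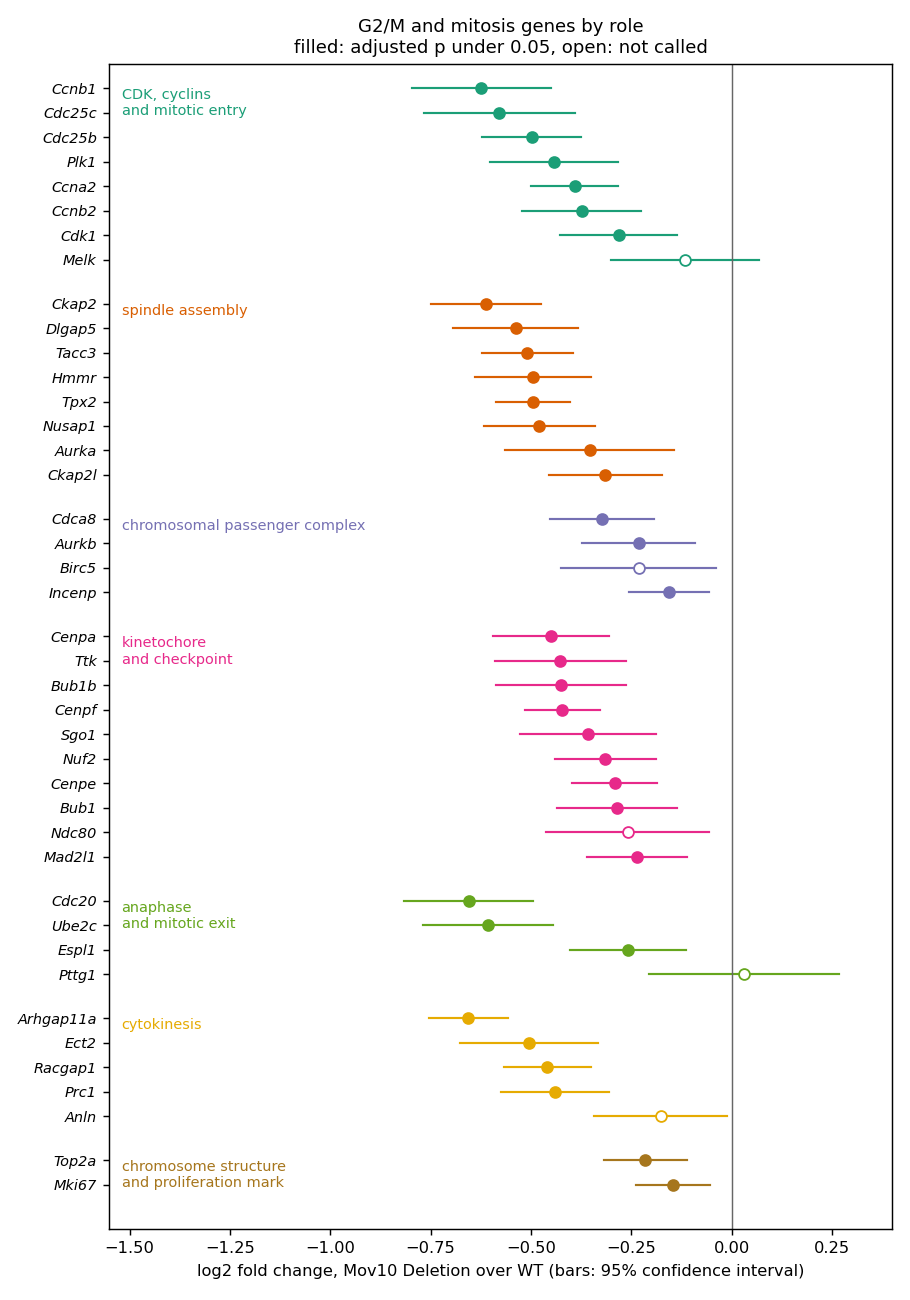
Log2 fold change, *Mov10* Deletion against WT (x axis), of each of the 41 genes (y axis), by role, with 95% confidence intervals of the limma-trend fit (bars). Filled points are the 36 genes called lower and open points the 5 not called, and *Pttg1* at 0.03 is the 1 point to the right of 0.

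Summed over the 41 genes, the level was 982.3, 890.0 and 873.9 CPM in *Mov10* Deletion, against 1147, 1186 and 1223 CPM in WT. The *Mov10* Deletion mean of 915.4 ± 58.5 CPM (SD, n = 3) was 22.8% below the WT mean of 1185 ± 38.0 CPM (SD, n = 3), and the groups did not overlap. Summed TPM were 786.3, 687.6 and 675.8 in *Mov10* Deletion and 940.0, 953.8 and 931.4 in WT, a difference of -23.9%. Within *Mov10* Deletion the first library was the closest to WT. It held the highest value of its group for 35 members and lay below every WT library for 35, while the second did so for 40 and the third for 41. The median log2 ratio of the members to their WT mean was -0.26, -0.44 and -0.47 in the *Mov10* Deletion libraries, against -0.03, 0.01 and 0.02 in the WT libraries. The first *Mov10* Deletion library was also the one with high *Ttr*, and the part of that tissue in its member levels was not tested. Without that library 39 members were called lower, and over the 6 fits that each left out 1 library the count ran between 32 and 39.

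**Figure D3:**
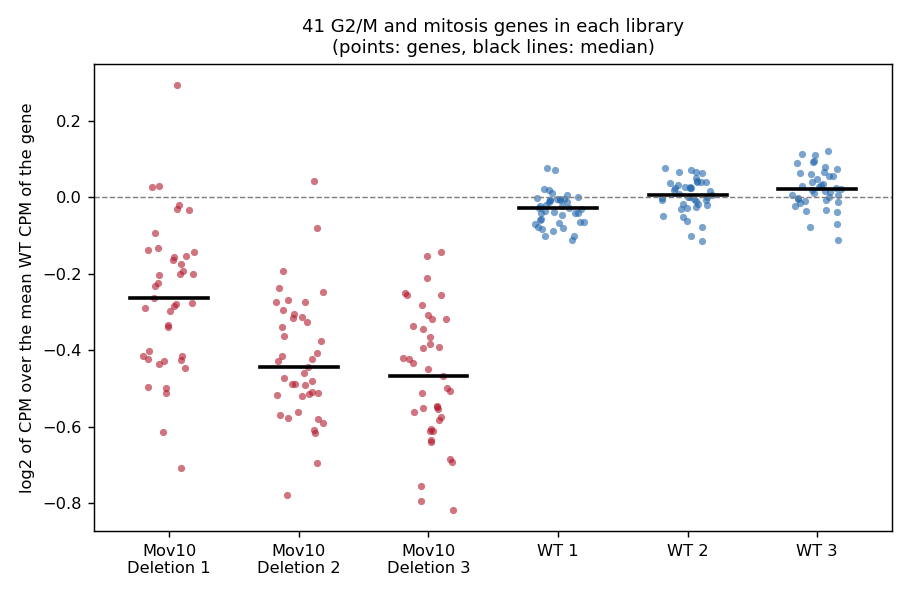
Log2 ratio of CPM to the mean WT CPM of the same gene (y axis) for the 41 genes (points) in each library (x axis), with the median as a black line. The medians lie at -0.26, -0.44 and -0.47 in *Mov10* Deletion and between -0.03 and 0.02 in WT.

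Per length and over all transcripts, *Cdk1* had the highest level in both groups, at 68.3 ± 6.49 TPM in *Mov10* Deletion and 80.7 ± 4.81 TPM in WT (SD, n = 3 each). Most of this came from *Cdk1-204*, a retained-intron transcript of 475 bases (43.8 TPM over the 6 libraries), and the coding transcripts of *Cdk1* were at 28.0 ± 3.31 TPM in *Mov10* Deletion and 32.9 ± 1.15 TPM in WT. Those of *Racgap1* were higher, at 39.7 ± 2.38 TPM in *Mov10* Deletion and 56.5 ± 1.57 TPM in WT. Over all transcripts, *Racgap1*, *Ube2c*, *Top2a* and *Ccna2* followed in WT, at 58.6 ± 1.72, 55.7 ± 1.59, 54.1 ± 2.12 and 51.0 ± 2.39 TPM, neighbours that differed by less than the sum of their SDs. The lowest was *Espl1* in WT, at 5.85 ± 0.657 TPM, and *Dlgap5* in *Mov10* Deletion, at 4.81 ± 0.220 TPM.

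Among the 8 genes of mitotic entry, 7 fell, with a median log2 fold change of -0.42. *Ccnb1* (ENSMUSG00000041431.18, chr13:100915153-100923116, GRCm39) encodes cyclin B1, the main partner of CDK1 in mitosis. It was at 21.1, 18.7 and 16.3 CPM in *Mov10* Deletion, against 28.0, 28.5 and 29.5 CPM in WT, and its log2 fold change was -0.62 (SE 0.07, adjusted p = 0.00228). The groups lay well apart. *Cdc25c* and *Cdc25b* encode the phosphatases that remove the inhibitory phosphates of CDK1. *Cdc25c* was at 4.93, 4.70 and 4.53 CPM in *Mov10* Deletion, against 6.93, 7.23 and 6.92 CPM in WT (log2 fold change -0.58, SE 0.08, adjusted p = 0.00362). *Cdc25b* was at 19.2, 19.4 and 18.4 CPM in *Mov10* Deletion, against 26.9, 26.1 and 28.2 CPM in WT (-0.50, SE 0.05, adjusted p = 0.00176). Both phosphatase genes were tight within each group. *Plk1*, the Polo-like kinase that promotes entry and spindle building, had a log2 fold change of -0.44 (SE 0.07). *Ccna2*, cyclin A of S and G2 phase, had one of -0.39 (SE 0.05), and *Ccnb2*, the second B-type cyclin, one of -0.37 (SE 0.06). The kinase gene *Cdk1* changed less, with 22.6, 19.8 and 18.2 CPM in *Mov10* Deletion, against 23.2, 25.1 and 26.3 CPM in WT (log2 fold change -0.28, SE 0.06, adjusted p = 0.0172). Its highest *Mov10* Deletion library came close to the lowest WT library, on the TPM scale the groups overlapped, and it was not called with the sex score or without the filter (adjusted p up to 0.110 over the alternatives). *Melk*, a kinase gene expressed in neural progenitors, was not called. It was at 10.1, 9.40 and 8.35 CPM in *Mov10* Deletion and 9.85, 10.3 and 9.68 CPM in WT (log2 fold change -0.12, 95% confidence interval -0.30 to 0.07), and the groups overlapped.

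All 8 genes of spindle assembly fell, with a median log2 fold change of -0.50. *Ckap2*, which encodes a spindle microtubule protein, was at 17.7, 13.8 and 15.2 CPM in *Mov10* Deletion, against 23.7, 22.7 and 24.7 CPM in WT (log2 fold change -0.61, SE 0.06, adjusted p = 0.00141). *Tpx2*, the activator of Aurora A at the spindle, was at 38.9, 34.9 and 36.1 CPM in *Mov10* Deletion, against 50.6, 52.3 and 51.4 CPM in WT (-0.49, SE 0.04, adjusted p = 0.00109). In both genes the lowest WT library was well above the highest *Mov10* Deletion library. *Tacc3*, which crosslinks the microtubules of kinetochore fibres, was at 24.3, 22.0 and 21.4 CPM in *Mov10* Deletion, against 30.9, 32.2 and 34.7 CPM in WT (-0.51, SE 0.05, adjusted p = 0.00132). *Dlgap5*, which stabilizes those fibres, had a log2 fold change of -0.54 (SE 0.07). *Hmmr*, a spindle pole protein that works with TPX2, had one of -0.50 (SE 0.06), and *Nusap1*, which bundles spindle microtubules, one of -0.48 (SE 0.06). *Aurka*, the Aurora A kinase gene, was at 9.85, 8.92 and 7.57 CPM in *Mov10* Deletion, against 11.1, 10.97 and 11.3 CPM in WT (log2 fold change -0.35, SE 0.09, adjusted p = 0.0280). It had the widest interval of the 8, and with *Ckap2l* (-0.32, SE 0.06) it was not called with the sex score or without the filter. The main transcript of *Hmmr* holds a stretch that is over 90% identical to parts of many other genes, so its reads may be split, and a shorter stretch of *Cenpf* is likewise shared with *Zmynd8*.

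Of the 4 genes of the chromosomal passenger complex, which corrects the attachment of chromosomes, 3 fell, with a median log2 fold change of -0.23. *Cdca8*, which encodes borealin, was at 15.5, 14.3 and 13.9 CPM in *Mov10* Deletion, against 18.3, 17.9 and 18.1 CPM in WT (log2 fold change -0.32, SE 0.06, adjusted p = 0.00743). It was the 1 gene of the complex that was called in every alternative. *Aurkb*, the kinase of the complex, was at 11.6, 10.3 and 10.2 CPM in *Mov10* Deletion, against 12.1, 12.7 and 13.2 CPM in WT (-0.23, SE 0.06, adjusted p = 0.0296). *Incenp*, the scaffold, was at 37.4, 33.2 and 32.8 CPM in *Mov10* Deletion, against 38.1, 38.6 and 37.1 CPM in WT (-0.16, SE 0.04, adjusted p = 0.0348). *Incenp* was the 1 called member whose groups overlapped, since its first *Mov10* Deletion library exceeded 1 WT library. *Aurkb* was called in 16 and *Incenp* in 9 of the 23 alternatives (adjusted p up to 0.106 and 0.367). Both lost their call when the third *Mov10* Deletion library or the second WT library was left out (adjusted p = 0.0660 and 0.0902 for *Aurkb*, 0.0691 and 0.139 for *Incenp*), and *Incenp* also without the first WT library (0.0705). *Birc5*, which encodes survivin, was not called. It was at 9.44, 7.98 and 7.19 CPM in *Mov10* Deletion and 9.07, 9.90 and 9.97 CPM in WT (log2 fold change -0.23, 95% confidence interval -0.42 to -0.04, adjusted p = 0.0783), and it was called in 7 of the 23 alternatives, among them those without the first *Mov10* Deletion library (adjusted p = 0.0117), the second (0.0315) or the first WT library (0.0232), over a range of 0.0117 to 0.226.

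Of the 10 genes of the kinetochore and the spindle checkpoint 9 fell, with a median log2 fold change of -0.34. *Cenpf*, a large protein of the outer kinetochore, was at 53.3, 50.4 and 53.9 CPM in *Mov10* Deletion, against 67.3, 72.1 and 77.0 CPM in WT. *Cenpa*, the histone H3 variant that marks centromeres, was at 11.9, 11.1 and 11.4 CPM in *Mov10* Deletion, against 14.9, 16.6 and 15.9 CPM in WT (log2 fold change -0.45, SE 0.06, adjusted p = 0.00347). The checkpoint genes *Ttk* and *Bub1b*, which encode the kinase MPS1 and the checkpoint protein BUBR1, fell to a like extent. *Ttk* was at 7.70, 6.70 and 6.63 CPM in *Mov10* Deletion, against 9.23, 9.43 and 9.60 CPM in WT (-0.43, SE 0.07, adjusted p = 0.00626). *Bub1b* was at 25.6, 24.2 and 22.1 CPM in *Mov10* Deletion, against 32.8, 30.1 and 34.0 CPM in WT (-0.43, SE 0.07, adjusted p = 0.00617). *Sgo1*, which protects centromere cohesion, had a log2 fold change of -0.36 (SE 0.07), *Cenpe*, a kinetochore motor, one of -0.29 (SE 0.05), and the checkpoint kinase gene *Bub1* one of -0.29 (SE 0.06). *Mad2l1*, which encodes the checkpoint effector MAD2, showed the smallest called fall of the 10, at 16.2, 15.5 and 15.2 CPM in *Mov10* Deletion, against 18.4, 18.1 and 18.8 CPM in WT (-0.24, SE 0.05, adjusted p = 0.0187). It was not called with the sex score or without the filter (adjusted p up to 0.0670 over the alternatives). *Bub1* lost its call without the second WT library (adjusted p = 0.0571, over a range of 0.00503 to 0.163 in its alternatives). The 2 NDC80 complex genes in the set bind microtubules as partners. *Nuf2* fell (-0.32, SE 0.05, adjusted p = 0.00718). *Ndc80*, at 8.12, 6.46 and 6.58 CPM in *Mov10* Deletion and 8.75, 7.66 and 8.49 CPM in WT, was not called (log2 fold change -0.26, 95% confidence interval -0.46 to -0.06, adjusted p = 0.0654). The groups of *Ndc80* overlapped through its first *Mov10* Deletion library, and it was called without that library (adjusted p = 0.0164) and without the second WT library (0.0370), over a range of 0.0164 to 0.182. The difference between the changes of *Nuf2* and *Ndc80* was not tested.

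The 4 genes of anaphase and mitotic exit held both a large change and the member that moved least. *Cdc20* (ENSMUSG00000006398.17, chr4:118290098-118294610, GRCm39), which activates the APC/C, was at 15.3, 15.6 and 13.5 CPM in *Mov10* Deletion, against 22.9, 23.5 and 24.1 CPM in WT. *Ube2c* encodes the ubiquitin-conjugating enzyme that works with the APC/C. It was at 14.2, 12.5 and 11.3 CPM in *Mov10* Deletion, against 18.9, 19.4 and 18.9 CPM in WT (log2 fold change -0.61, SE 0.07, adjusted p = 0.00210). Both genes had groups far apart and were called in all 23 alternatives. *Espl1*, separase, the protease that opens cohesin, was at 12.3, 12.3 and 12.5 CPM in *Mov10* Deletion, against 14.2, 15.6 and 14.9 CPM in WT (-0.26, SE 0.06, adjusted p = 0.0223). It lost its call without the second WT library (adjusted p = 0.0925, over a range of 0.00577 to 0.163). *Pttg1*, securin, the inhibitor of separase, was at 6.12, 5.14 and 4.49 CPM in *Mov10* Deletion and 4.99, 5.23 and 4.76 CPM in WT. Its *Mov10* Deletion libraries lay on both sides of the WT libraries, the log2 fold change was 0.03 (SE 0.10, 95% confidence interval -0.21 to 0.27, adjusted p = 0.851), and it was called in 0 of the 23 alternatives. Its span overlaps that of *Slu7* on the other strand.

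Of the 5 cytokinesis genes 4 fell, with a median log2 fold change of -0.46. *Arhgap11a* (ENSMUSG00000041219.17, chr2:113660363-113679367, GRCm39), a GTPase-activating protein for RhoA, had the smallest p of the set. It was at 29.0, 29.3 and 29.3 CPM in *Mov10* Deletion, against 44.8, 45.8 and 51.5 CPM in WT, and its log2 fold change was -0.66 (SE 0.04, adjusted p = 0.000616). The 3 *Mov10* Deletion libraries were nearly equal and far below WT. *Ect2* encodes the exchange factor that activates RhoA at the cleavage furrow, and *Racgap1* its partner in the centralspindlin complex. *Ect2* was at 16.4, 13.9 and 12.4 CPM in *Mov10* Deletion, against 19.9, 19.8 and 20.0 CPM in WT (-0.51, SE 0.07, adjusted p = 0.00418). *Racgap1* was at 59.2, 56.9 and 53.1 CPM in *Mov10* Deletion, against 75.2, 77.4 and 84.2 CPM in WT (-0.46, SE 0.05, adjusted p = 0.00155). The activator and the GTPase-activating protein of RhoA thus were both lower. *Prc1*, which bundles the microtubules of the central spindle, had a log2 fold change of -0.44 (SE 0.06, adjusted p = 0.00300). *Anln*, anillin, the scaffold of the contractile ring, was at 14.1, 11.3 and 11.1 CPM in *Mov10* Deletion and 13.5, 13.1 and 15.0 CPM in WT. It was not called (log2 fold change -0.18, 95% confidence interval -0.34 to -0.01, adjusted p = 0.107), and it was called in 2 of the 23 alternatives, one of them without the first *Mov10* Deletion library (adjusted p = 0.0128, over a range of 0.0128 to 0.319).

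The widely used marks of dividing cells were among the called members that moved least. *Mki67*, the Ki-67 gene, which is expressed through all phases of the active cell cycle, was at 115, 106 and 116 CPM in *Mov10* Deletion, against 118, 127 and 138 CPM in WT (log2 fold change -0.15, SE 0.04, adjusted p = 0.0326). The groups nearly touched. *Mki67* was called in 15 of the 23 alternatives and lost its call without the second WT library (adjusted p = 0.117, over a range of 0.00444 to 0.125). *Top2a*, the topoisomerase that untangles chromosomes, was at 107, 97.3 and 91.9 CPM in *Mov10* Deletion, against 111, 117 and 116 CPM in WT (-0.22, SE 0.04, adjusted p = 0.0131). On the TPM scale the groups of *Top2a* overlapped, and it was not called with the sex score or without the filter (adjusted p up to 0.0727 over the alternatives). The differences between the changes of *Mki67* and *Top2a* and those of *Cdc20* or *Arhgap11a* were not tested.

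**Figure D4:**
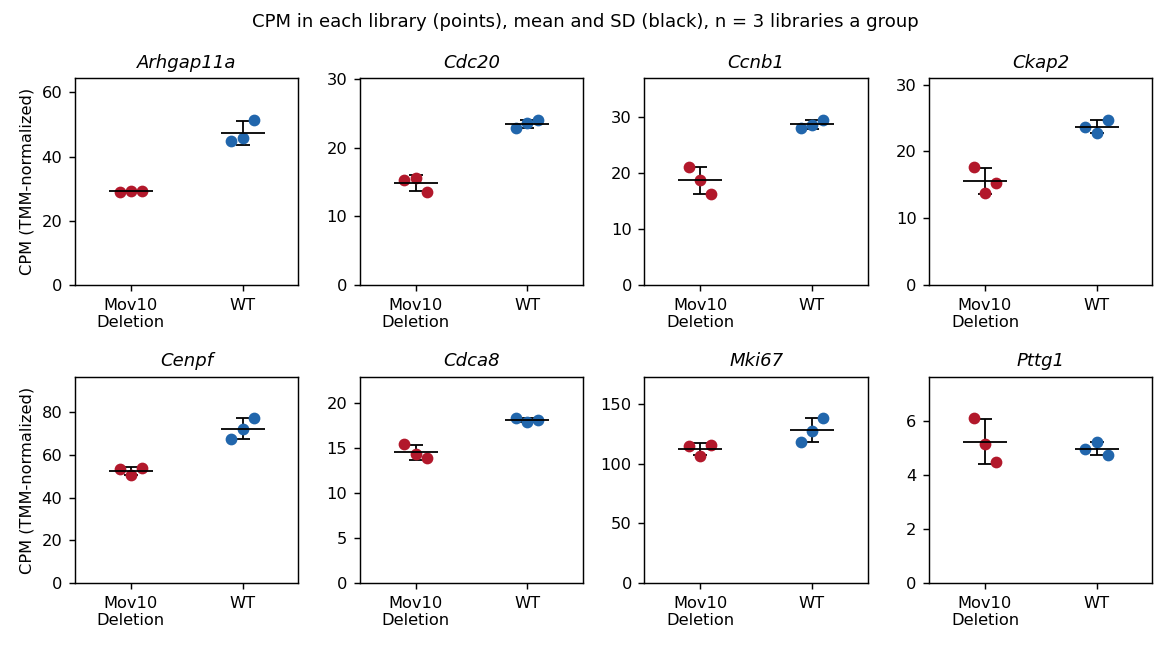
CPM (y axis, from 0) of 8 members in each library (points) with mean and SD (black, n = 3 libraries a group), *Mov10* Deletion at the left of each panel and WT at the right. *Arhgap11a* lies between 29.0 and 29.3 CPM in *Mov10* Deletion and at 44.8 CPM or more in WT, while the groups of *Pttg1* overlap.

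Set against the promoter sequences, all 26 members with a CCAAT match were called lower, and the 5 members that were not called were among the 9 windows without one. *Birc5*, *Ndc80* and *Anln* had a CHR core match alone, and *Melk* and *Pttg1* had neither. The other 4 windows without CCAAT belonged to *Mad2l1*, *Nuf2*, *Nusap1* and *Tacc3*, which fell. The 23 members with both motifs had a median log2 fold change of -0.43 and ranged from -0.66 to -0.15. The members without a window (*Aurkb*, *Ccna2*, *Dlgap5*, *Tpx2*, *Incenp* and *Cdc25c*) were also called lower and stand outside this grouping. Calls on both sides of it moved with the settings, among them those of *Mki67*, *Espl1*, *Birc5* and *Ndc80*. This grouping was made after the values were seen and carries no test.

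The related genes of the pathway came from lists that were chosen with earlier results of these data known. They differed from list to list, where 12.1% of all tested genes fell and 12.6% rose. Among 12 mitotic kinesins, the motors of the spindle, 11 fell and 0 rose (median log2 fold change -0.38). *Kif2c*, which takes microtubules apart at kinetochores, was at 11.3, 8.83 and 9.19 CPM in *Mov10* Deletion, against 14.2, 14.7 and 14.5 CPM in WT. *Kif11*, the motor that pushes spindle poles apart, was at 39.4, 35.9 and 34.5 CPM in *Mov10* Deletion, against 45.5, 46.6 and 48.1 CPM in WT. Of 22 further genes of the spindle, of centromere loading and of cytokinesis, 17 fell and 1 rose (median -0.35). The lowest p belonged to *Knstrn*, a spindle and kinetochore protein gene, at 16.8, 14.5 and 16.2 CPM in *Mov10* Deletion, against 25.3, 25.5 and 25.7 CPM in WT (log2 fold change -0.69, SE 0.06, adjusted p = 0.00109), and then to *Psrc1*, a microtubule regulator gene (-0.68, SE 0.08, adjusted p = 0.00189). Among 36 other kinetochore and checkpoint genes 10 fell and 0 rose, with a median of -0.10. This list holds constitutive subunits, and its lowest p belonged to *Sgo2a*, a protector of centromere cohesion (-0.44, SE 0.06, adjusted p = 0.00332), and *Spc25*, of the NDC80 complex (-0.41, SE 0.07, adjusted p = 0.00676).

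Of 17 APC/C subunits and regulators 3 fell and 4 rose (median 0.02), where 12.1% of all tested genes fell and 12.6% rose. Over the alternatives 0 to 4 of these genes fell and 0 to 5 rose. *Anapc5*, a scaffold subunit, was at 318, 340 and 326 CPM in *Mov10* Deletion, against 279, 276 and 260 CPM in WT, while *Anapc7* was at 49.7, 49.99 and 51.3 CPM in *Mov10* Deletion, against 57.2, 58.2 and 61.7 CPM in WT. Of 17 genes for G2/M transcription factors, meaning MuvB, B-MYB, FOXM1, NF-Y and the pocket proteins with their partners, 6 fell and 2 rose (median -0.12). *Tfdp2*, a dimerization partner of E2F factors, was at 46.1, 46.5 and 48.9 CPM in *Mov10* Deletion, against 59.7, 61.0 and 66.6 CPM in WT (-0.37, SE 0.04, adjusted p = 0.00194). *Nfya*, a subunit of NF-Y, was at 98.7, 92.6 and 93.7 CPM in *Mov10* Deletion, against 85.9, 78.3 and 60.4 CPM in WT (0.26, SE 0.04, adjusted p = 0.00465). Of 46 genes of the G1/S transition and of DNA replication, the preceding steps of the cycle, 14 rose, 4 fell and 28 were not called (median 0.10), where 12.6% of all tested genes rose and 12.1% fell. *Uhrf1*, which maintains DNA methylation at replication, was at 47.9, 38.8 and 39.6 CPM in *Mov10* Deletion, against 32.8, 33.5 and 30.5 CPM in WT (0.34, SE 0.04, adjusted p = 0.00253). *Ccne2*, a cyclin of the G1/S transition, was at 8.74, 6.82 and 6.58 CPM in *Mov10* Deletion, against 5.10, 4.89 and 4.10 CPM in WT (0.57, SE 0.08, adjusted p = 0.00416). At an unadjusted p of 0.05, 0 of the kinesin genes and 2 of the other kinetochore genes were higher. The counts of these lists moved with the settings: over the 23 alternatives 4 to 11 kinesin genes fell, and 1 to 18 of the G1/S and replication genes rose.

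**Figure D5:**
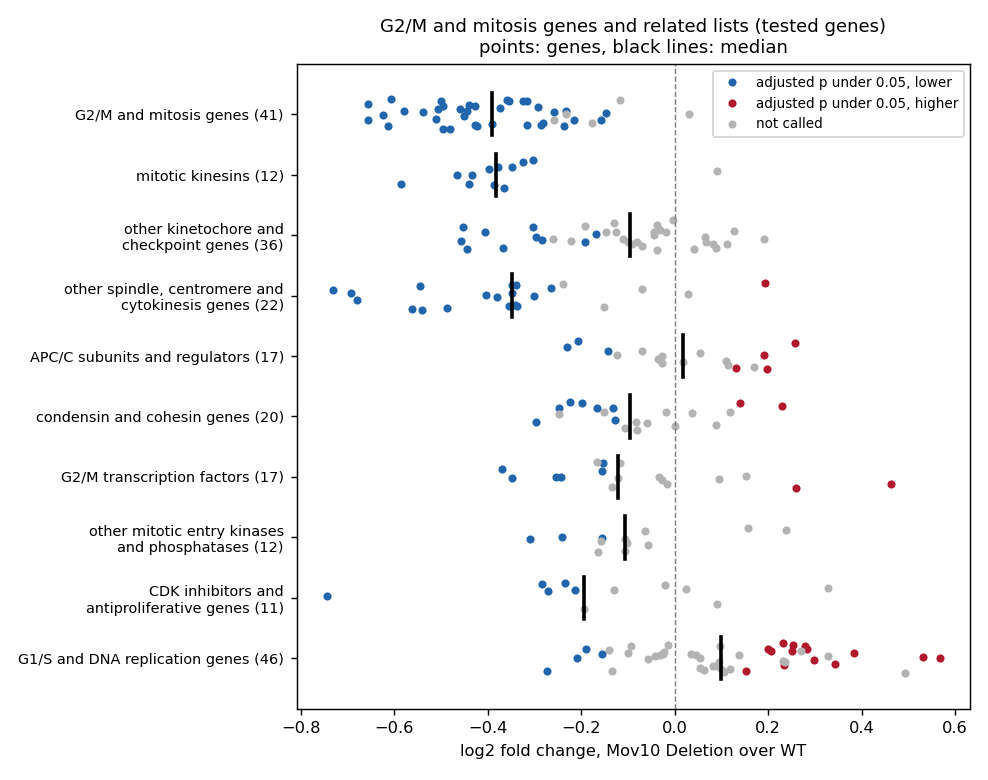
Log2 fold change, *Mov10* Deletion against WT (x axis), of the tested genes (points) of the set and of 9 related lists (y axis, number of genes in brackets), coloured by the limma-trend call, with the median as a black line. The median was -0.39 for the G2/M and mitosis genes, -0.38 for the mitotic kinesins and 0.10 for the G1/S and DNA replication genes.

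Markers of the cells that could be dividing, or that could enter a dissection, were read beside these values, and their part in the result was not tested. Their counts stand beside the 12.1% of all tested genes that fell and the 12.6% that rose. Of 12 radial glia markers 2 fell and 2 rose (median log2 fold change 0.00), and their summed level ranged from 2580 to 2839 TPM in *Mov10* Deletion and from 1972 to 2305 TPM in WT. The radial glia gene with the smallest p, *Fabp7*, was at 385, 363 and 336 CPM in *Mov10* Deletion, against 254, 271 and 230 CPM in WT. Of the 9 intermediate progenitor markers 0 were called with limma-trend, 0 were under an unadjusted p of 0.05, and up to 1 was called in either direction over the alternatives, edgeR and DESeq2 included, and their sums overlapped, at 598 to 661 TPM in *Mov10* Deletion and 608 to 674 TPM in WT. Of 6 oligodendrocyte precursor markers 1 fell (*Olig2*, -0.28, SE 0.08, adjusted p = 0.0423), and the sums overlapped, at 106 to 132 TPM in *Mov10* Deletion and 85.7 to 125 TPM in WT. Of 7 astrocyte markers 3 rose, led by *Aqp4* (1.14, SE 0.15, adjusted p = 0.00279), with sums of 536 to 595 TPM in *Mov10* Deletion and 438 to 515 TPM in WT. The summed markers of radial glia and of astrocytes were higher in every *Mov10* Deletion library than in any WT library, and those of the other progenitors overlapped. A sum in TPM follows its most abundant genes, and the radial glia markers were split. At an unadjusted p of 0.05 (limma-trend), 4 of them fell and 4 rose. Of 9 endothelial markers 1 fell, *Cldn5* (-0.39, SE 0.04, adjusted p = 0.00152), and the sums overlapped, at 214 to 270 TPM in *Mov10* Deletion and 246 to 275 TPM in WT. Of 11 microglia markers 0 were called (1 lower at an unadjusted p of 0.05, and 0 to 2 lower over the alternatives), with sums of 149 to 203 TPM in *Mov10* Deletion and 146 to 195 TPM in WT. Of the 7 tested erythroid markers 3 fell and 0 rose (median -0.33), 1 fell without the factors, and 0 to 4 fell over the alternatives. Their summed level of 1210 to 1710 TPM in *Mov10* Deletion overlapped that of 1375 to 1761 TPM in WT. The 7 choroid plexus markers summed to between 4.25 and 116 TPM in *Mov10* Deletion and between 17.2 and 38.4 TPM in WT, and the 8 meningeal markers to between 55.6 and 164 TPM in *Mov10* Deletion and between 68.9 and 73.6 TPM in WT.

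At the level of transcripts, the coding transcripts of the members summed to 951, 863 and 845 CPM in *Mov10* Deletion, against 1115, 1151 and 1187 CPM in WT (-23.0%). Their other transcripts, such as those with retained introns, summed to 30.8, 27.1 and 28.7 CPM in *Mov10* Deletion, against 31.5, 34.96 and 34.9 CPM in WT (-14.6%). Among the called members some differed from the sums. The other transcripts of *Racgap1* averaged 1.46 CPM in *Mov10* Deletion, against 1.02 CPM in WT (43.5%), while its coding transcripts fell (-29.5%). The other transcripts of *Prc1* (33.4%) and *Incenp* (31.4%) were higher as well, and those of *Cdk1* (-16.1%), *Cenpa* (-18.5%) and *Ttk* (-26.9%) were lower. For the other transcripts of *Racgap1*, *Incenp*, *Cdk1* and *Ttk* the libraries overlapped between the groups. The changes of these classes were not tested. *Mad2l1* differed from the sums in both classes, with the larger fall in its other transcripts. Its coding transcripts averaged 11.7 CPM in *Mov10* Deletion, against 12.7 CPM in WT (-8.2%), while its other transcripts averaged 3.92 CPM in *Mov10* Deletion, against 5.71 CPM in WT (-31.3%). The share of a gene's RNA in each transcript could be tested for 26 members, and it differed in 1, *Cenpa* (limma diffSplice, adjusted p = 0.00704), where 5.34% of all genes tested were called. The short coding transcript *Cenpa-209*, of 369 bases, had 37.7, 0 and 0 estimated counts in *Mov10* Deletion, against 81.5, 41.8 and 38.8 in WT, and a count of 0 allows up to 3 counts in a library. The transcript with a retained intron, *Cenpa-208*, had 209, 172 and 256 estimated counts in *Mov10* Deletion, against 226, 179 and 183 in WT. The call of *Cenpa* rested on few counts. Of the 8 alternatives it was made in 3, those without the first *Mov10* Deletion library, the first WT library and the second WT library. It was lost without each of the other 3 libraries, with a filter of 1 CPM and without the factors, where *Mad2l1* was called. *Prc1*, which was not called (adjusted p = 0.0503), was called without the first *Mov10* Deletion library and without the third WT library.

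The reads of some members could be shared with other genes. Processed copies elsewhere in the genome, among them those of *Ccnb1*, *Cdc20*, *Plk1* and *Ube2c*, held at most a few reads. In 8 members (*Cdk1*, *Ccna2*, *Cdc25b*, *Aurka*, *Tacc3*, *Cdca8*, *Pttg1* and *Prc1*) a coding gene with over 1000 reads on average overlaps on the other strand. *Aurka* shares 794 bases of transcript with *Fam210b*, and *Ccna2* shares 513 bases with *Exosc9*. The kit kept the strand, but whether the quantification used it was not given in the sources used here.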

How the data were processed

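The authors prepared poly(A) libraries with a strand-specific kit from *Mov10* Deletion and WT hippocampi (3 each), and quantified the reads with Salmon 1.4.0 on a decoy-aware GRCm39 transcriptome. The deposited estimated counts are not normalized. The TPM in the authors' files are scaled for effective length and depth. Groups and replicate numbers came from the sample titles, and since each library is a pool of pups, p-values measure the spread between pools that the factors left. The annotation release and strand setting are not given in the sources used here.

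Transcripts were joined to GENCODE M39 by identifier without version (137570 of 139225; the rest held up to 0.600% of the counts) and summed per gene. Genes that reached 0.25 CPM in 3 or more libraries entered limma-trend on log2 CPM with TMM scaling and a prior count of 2 (limma 3.58.1, edgeR 4.0.16, R 4.3.3), with 2 RUVs factors written out in R. Log2 fold changes, their standard errors and confidence intervals are from this fit, with 2 residual and 5.89 prior degrees of freedom. CPM are without the factors. Of all tested genes 2033 fell and 2104 rose, and with upper quartile scaling 1491 fell and 2320 rose. Transcript usage was tested with diffSplice on 10338 genes. Copies were sought with BLAST+. Lists are described by counts and medians, with no set test. The steps were tested on simulated data.

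Members and lists were chosen with earlier results of these data known. Named were all members, the 2 genes with the smallest p of a pathway list, 1 of a cell type list, *Mov10*, the sex genes, and up to 8 promoters by smallest p; *Ttr* as the leading choroid plexus gene. The 23 alternatives changed factors, test (edgeR, DESeq2 1.42.0), scaling, filter, prior count, block or libraries.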

Additional observations from a re-analysis of the deposited data

How the results depend on the processing

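Over the 23 alternatives to the gene fit, 22 to 39 members were called lower, 30 or more in 21 of them, and 0 were called higher in any. The median log2 fold change of the members ran from -0.45 to -0.36. Of the 36 called members 22 were called in every alternative, and 40 of the 41 had a log2 fold change below 0 in every one. The exception was *Pttg1*, between -0.071 without the first *Mov10* Deletion library (adjusted p = 0.635) and 0.13 without the third (0.360), in a range of adjusted p of 0.360 to 0.978. With no filter on low counts 22 members were called lower, as 29469 genes entered the correction. Leaving out each library in turn gave 32 to 39 members called lower and 0 to 3 members with a change of transcript usage. It gave 35 to 40 members with no overlap, a count that can only stay or rise when a library is left out. Counted only in the 250 bases before the start, the CHR core was in 16 and both motifs were in 15 of the 35 windows. Of 943 values of single members under an alternative, 877 kept their direction and side of the threshold, 52 lost the call, 13 gained it and 1 turned its sign. Over all tested genes, 597 fell and 767 rose with the sex score, 480 fell and 445 rose without the filter, 1347 rose with counts made from TPM, and 1147 fell without the second WT library, for reasons that were not tested beyond the number of genes and libraries. The replicate numbers did not pair the libraries (correlations of same-numbered deviations 0.01, -0.07 and 0.04). With them as a block 34 members were called lower without factors and 38 with 1 factor. With 3 pools a group, the intervals of the 5 uncalled members leave possible a fall of the size of the smallest called one (*Mki67*, -0.15). Only those of *Birc5* (down to -0.42) and *Ndc80* (down to -0.46) reach the median of the members, -0.39.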

Other observations

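Other lists of the cell cycle are given as values, where 12.1% of all tested genes fell and 12.6% rose. Of 11 tested inhibitors of cyclin-dependent kinases and antiproliferative genes 5 fell and 0 rose (median log2 fold change -0.19). *Cdkn1a*, which encodes the inhibitor p21, was at 10.8, 9.42 and 11.2 CPM in *Mov10* Deletion, against 17.8, 17.1 and 17.0 CPM in WT (limma-trend log2 fold change -0.74, SE 0.08, adjusted p = 0.00155). *Cdkn1b*, which encodes p27, was at 149.5, 143.6 and 140.7 CPM in *Mov10* Deletion, against 176, 172 and 175 CPM in WT (-0.27, SE 0.04, adjusted p = 0.00294). Of 20 condensin and cohesin genes 7 fell and 2 rose (median -0.09). *Rad21*, a cohesin subunit, was at 210.0, 216 and 214 CPM in *Mov10* Deletion, against 258, 262 and 278 CPM in WT (-0.30, SE 0.03, adjusted p = 0.00195), and *Smc4*, a condensin subunit, had a log2 fold change of -0.22 (SE 0.04, adjusted p = 0.00753). Of 12 further kinases and phosphatases of mitotic entry 3 fell and 0 rose (median -0.11), with the smallest p for *Ppp2r2d*, a regulatory subunit of protein phosphatase 2A (-0.15, SE 0.04, adjusted p = 0.0238), and *Chek2*, a DNA damage checkpoint kinase gene (-0.31, SE 0.08, adjusted p = 0.0272). The libraries of *Chek2* overlapped between the groups, and without the factors it was not called (adjusted p = 0.108) and 1 gene of that list fell.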
